A study of Homo sapiens with 24 samples.

Results

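Peaks of KRAB zinc finger proteins (KZFPs) at the promoters of long non-coding RNAs (lncRNAs) were examined in the peak lists of 21 KZFPs. A peak was included when its MACS score, 10 times the −log10 of the peak's p-value, was above 80, when its midpoint lay within 500 bp of the start of a lncRNA-type transcript, and when it lay more than 2500 bp from every protein-coding transcript start. The rule used only positions and the score threshold, with GENCODE release 44 mapped to hg19. It left 283 of 31717 peaks, called members below. HEK 293T, a human embryonic kidney line, had been transduced with 1 HA-tagged KZFP per culture, selected with puromycin at 1 µg/ml for 7 days and induced with doxycycline at 1 µg/ml. The KZFP was thus an overexpressed transgene in every library, on top of the endogenous proteins of the line. Chromatin was precipitated with 15 µg of an antibody against HA. For 15 KZFPs the assay was ChIP-exo, where exonuclease digestion of the precipitated DNA stops at the crosslinked protein. For the other 6, ZNF746, ZNF213, ZNF256, ZKSCAN8, ZNF20 and ZNF597, it was ChIP-seq. Where one of these, such as ZNF746, is set beside a ChIP-exo library, KZFP and assay cannot be told apart. There was 1 library per KZFP. No replicate error can therefore be given for a difference between KZFPs and no test was made. The intervals below are exact 95% binomial or Poisson intervals that cover counting error only. A further ChIP-seq library labelled 293Tctrl served as background. It held 4 peaks above 80, of which 0 met the rule, and 1 of its 163 deposited peaks, with a score of 53.37, met the distances alone.

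KZFPs are one of the largest families of DNA-binding proteins in human. Their arrays of zinc fingers read DNA sequence, often inside transposable elements, and their KRAB domain commonly recruits the corepressor KAP1, which brings in heterochromatin factors. LncRNAs are transcripts without a long open reading frame, made by RNA polymerase II from their own promoters, from promoters shared with a neighbouring gene, or from promoters that were once part of a transposable element. Compared with protein-coding promoters, those of lncRNAs less often lie in CpG islands, the stretches rich in CG dinucleotides that usually escape DNA methylation.

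The sequences on which the results turn are shown first, each as 200 bp of hg19 around the peak's midpoint, plus strand, 5′ to 3′. The first 5 are the highest-scoring members of ZNF251, ZNF160 and ZNF763, the locus where 2 KZFPs had members, and the other ZNF251 member at the top of its list. Capitals mark CG dinucleotides.
LINC01596, chr4:190802373-190802572 (ZNF251): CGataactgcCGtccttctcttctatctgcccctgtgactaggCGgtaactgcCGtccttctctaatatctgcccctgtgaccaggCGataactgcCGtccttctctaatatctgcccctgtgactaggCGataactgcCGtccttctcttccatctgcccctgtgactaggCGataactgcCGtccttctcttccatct
ENSG00000290924, chr9:88420169-88420368 (ZNF251): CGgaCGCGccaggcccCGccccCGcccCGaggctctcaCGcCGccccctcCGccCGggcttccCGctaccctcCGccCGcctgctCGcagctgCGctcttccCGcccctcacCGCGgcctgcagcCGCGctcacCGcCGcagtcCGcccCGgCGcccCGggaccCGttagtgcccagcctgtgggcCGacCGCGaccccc
ENSG00000243107, chr7:91836031-91836230 (ZNF160): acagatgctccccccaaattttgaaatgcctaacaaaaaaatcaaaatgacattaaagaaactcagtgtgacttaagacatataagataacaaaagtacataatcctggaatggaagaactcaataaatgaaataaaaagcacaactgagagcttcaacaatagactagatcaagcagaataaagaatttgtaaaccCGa
ENSG00000267053, chr19:36795657-36795856 (ZNF763): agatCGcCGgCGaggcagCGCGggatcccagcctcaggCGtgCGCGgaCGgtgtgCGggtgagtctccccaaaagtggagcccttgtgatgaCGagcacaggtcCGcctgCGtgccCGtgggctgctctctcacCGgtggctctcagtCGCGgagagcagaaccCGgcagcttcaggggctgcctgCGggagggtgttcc
ENSG00000234961, chr10:17276613-17276812 (ZNF763): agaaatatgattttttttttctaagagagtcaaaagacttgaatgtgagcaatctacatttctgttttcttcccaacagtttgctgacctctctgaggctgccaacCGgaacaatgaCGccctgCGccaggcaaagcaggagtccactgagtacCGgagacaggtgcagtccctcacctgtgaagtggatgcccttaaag
The windows at ENSG00000290924 and ENSG00000267053 held 30 and 19 CG dinucleotides, whereas the ZNF160 window at ENSG00000243107 held 1. The window at LINC01596 was made of near-repeats of one short unit. The next 3 windows were chosen after the data were seen, as high-scoring members that hold the 8-base word most typical of their library (below). Capitals mark the word, which is aagtgaaa or its reverse complement tttcactt for ZNF251 and ccctcccc or its reverse complement for ZNF746.
LERFS, chr9:66532312-66532511 (ZNF251): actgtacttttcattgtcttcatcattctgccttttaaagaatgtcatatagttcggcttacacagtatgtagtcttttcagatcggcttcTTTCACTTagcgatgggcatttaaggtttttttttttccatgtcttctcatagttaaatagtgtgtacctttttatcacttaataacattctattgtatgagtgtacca
ENSG00000229321, chr2:207662945-207663144 (ZNF251): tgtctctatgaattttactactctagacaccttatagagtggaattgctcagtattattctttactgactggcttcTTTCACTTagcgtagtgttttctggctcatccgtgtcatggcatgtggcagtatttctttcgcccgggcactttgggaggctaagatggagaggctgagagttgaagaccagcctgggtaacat
MIRLET7A1HG, chr9:96928802-96929001 (ZNF746): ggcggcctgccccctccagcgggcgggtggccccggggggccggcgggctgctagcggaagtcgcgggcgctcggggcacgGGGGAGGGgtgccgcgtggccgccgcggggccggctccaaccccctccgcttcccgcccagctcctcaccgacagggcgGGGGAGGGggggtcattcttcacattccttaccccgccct

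Of the 21 KZFPs, 13 had at least 1 member. ZNF251 contributed 222 members, 78.45% of all, while it contributed 66.13% of all kept peaks. Without ZNF160 the order turned, with 81.6% of 272 members and 82.8% of 25340 peaks from ZNF251. ZNF160 and ZNF763 had 11 each, ZNF850 had 9, ZNF578 and ZNF746 had 7 each, ZFP28 had 5, ZNF195 had 4 and ZKSCAN7 had 3. ZNF34, ZNF446, ZNF724P and ZNF20 had 1 each. The 8 libraries without a member were those of ZKSCAN4, ZNF416, ZNF546, ZNF729, ZNF256, ZKSCAN8, ZNF597 and ZNF213, which were short lists with at most 96 peaks above 80. Depth and the number of peaks called cannot be told apart here, since the lists hold no read counts and the methods give only minimum depths. These are 15000000 reads in ChIP-exo, with a length of 100 bp, while ChIP-seq had at least 27000000, with a length of 85 bp.

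Shares differed between libraries beyond counting error. ZNF763 had 4.91% of 224 peaks at lncRNA promoters (interval 2.48 to 8.62%), against 1.06% of 20974 peaks for ZNF251 (0.924 to 1.21%) and 0.172% of 6377 peaks for ZNF160 (0.0861 to 0.308%). These 3 intervals did not overlap. Without the peaks within 1 Mb of an assembly gap, which hold 5 of the 11 ZNF763 members, the share of ZNF763 was 3.70% (1.37 to 7.89%) and still above that of ZNF251 (1.02%, 0.882 to 1.17%). With all deposited peaks it was 1.67% (1.27 to 2.15%), against 1.13% for ZNF251 (1.02 to 1.26%), so that the size of the ZNF763 share rests on the score threshold. The share was 3.64% for ZNF195 (1.00 to 9.05%), 2.69% for ZNF746 (1.09 to 5.47%) and 1.94% for ZNF850 (0.891 to 3.65%), and each of these intervals overlapped that of ZNF763 and that of ZNF251 alike. ZNF578 with 0.820% and ZFP28 with 0.455% were nearer to ZNF251. ZNF416, with 0 of 65 peaks, still allowed a share of up to 5.52%. The 20 KZFPs other than ZNF251 had 61 members among 10743 peaks, 0.568% (0.435 to 0.729%). That pooled share rests on the long list of ZNF160. Without it the other 19 KZFPs had 50 members among 4366 peaks, 1.15% (0.851 to 1.51%), which overlapped the interval of ZNF251.

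**Figure D1:**
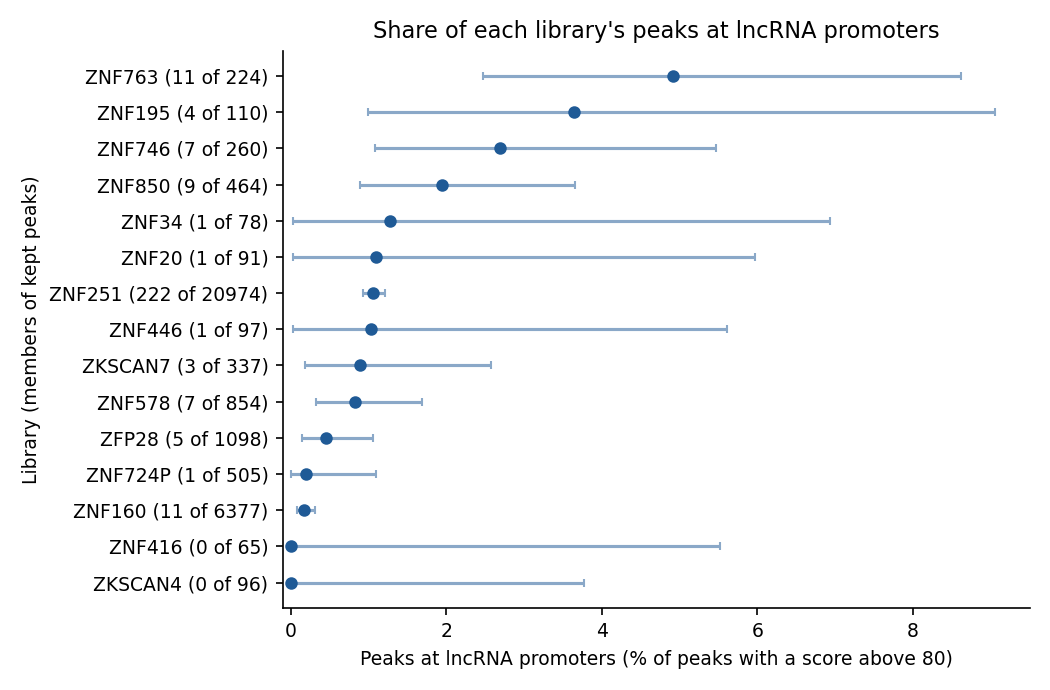
Share of each library's peaks (score above 80) that lay at lncRNA promoters, in percent, for the 15 libraries with at least 60 such peaks. Points are single libraries and bars are exact 95% binomial intervals, which leave ZNF763 above ZNF251 and ZNF251 above ZNF160.

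The larger part of the peaks at lncRNA starts also lay near a coding start. Of 656 peaks within 500 bp of a lncRNA start, 373 (56.9%) were left out because a coding start lay within 2500 bp. This share was 87.3% for ZNF746 (48 of 55 peaks), a KZFP with 180 of its 260 peaks (69.2%) within 500 bp of coding starts. It was 57.4% for ZNF251, 15.4% for ZNF763 (2 of 13) and 8.33% for ZNF160 (1 of 12). ZNF746 had 25.7 peaks at coding starts for each member, ZNF251 had 6.24, ZNF763 had 1.45 and ZNF160 had 0.909. The members themselves lay a median of 46036 bp from the nearest coding start. At the edges of the rule, the last ZNF251 peak inside scored 80.72 and the first outside 79.92. The farthest member lay 499 bp from its lncRNA start and the nearest peak outside lay at 502 bp. The member closest to a coding start lay 2602 bp from it, at LINC03073, and the nearest peak left out lay at 2368 bp.

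The 283 members lay nearest to 279 lncRNA genes, 1.87% of the 14886 lncRNA genes with a start away from coding starts. For ZNF251 alone the share was 1.48% (220 genes) and for the other KZFPs together 0.396% (59 genes). LncRNA genes known only by an Ensembl identifier had a member in 1.52% of 10549 cases (1.29 to 1.77%). LINC genes, the intergenic lncRNAs, had one in 2.51% of 2192 cases (1.90 to 3.25%), and antisense lncRNAs in 2.58% of 1124 (1.73 to 3.68%). For lncRNAs with another symbol it was 4.00% of 675 (2.65 to 5.77%). The intervals of these 3 classes with a symbol overlapped each other, and 2 of them, LINC and other symbol, did not overlap that of genes with an identifier alone. The number of starts per gene was not matched between the classes. Of 122 lncRNA genes named as divergent, 1 had a member (0.0208 to 4.48%), an interval that holds the 1.87%. The name stands for a start opposite a coding promoter, where the rule leaves peaks out. Only starts of these genes away from coding starts could hold a member, so the count says little about divergent promoters. By the position of the peak midpoint, 83.0% of members lay outside coding genes. Inside a coding gene lay 12.7% antisense to the lncRNA's strand and 4.24% on the same strand. All eligible lncRNA starts gave 81.3%, 14.8% and 3.92%, within the members' intervals.

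Lists of lncRNAs with known roles were read against the 1.87% of all eligible lncRNA genes with a member of any KZFP and the 1.48% with one of ZNF251. The lists were chosen with earlier results of these data known, and the number of starts per gene was not matched. Their shares are therefore descriptions and no test of enrichment. SNHG12, which hosts small nucleolar RNAs in its introns, had a ZNF251 score of 1657.08 and a midpoint 2 bp inside the transcript. It was the only 1 of 22 snoRNA hosts away from coding starts with a member, a share whose interval (0.115 to 22.8%) held the 1.87%. MALAT1, an abundant nuclear speckle RNA, had a ZNF251 peak of 85.09 located 191 bp upstream, just above the threshold, and was 1 of 5 lncRNAs of nuclear bodies (0.505 to 71.6%). In the list of HOX and developmental lncRNAs, 3 of 18 had a ZNF251 peak (16.7%, 3.58 to 41.4%), and this interval lay above the 1.48%. These were CRNDE, next to the homeobox gene IRX5 (796.07), DANCR (196.82) and HOXA-AS2, antisense in the HOXA cluster (155.5). Of 10 imprinted lncRNAs, 0 had one, which allows a share of up to 30.8%.

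The hosts of microRNAs were spread over more KZFPs, with 5 of 72 hosts having a member (6.94%, 2.29 to 15.5%). ZNF251 had peaks at MIR31HG (97.18) and at MIRLET7BHG (94.47), a host of let-7 microRNAs. ZNF746 had one at MIRLET7A1HG (132.65), another let-7 host, 331 bp downstream of the start. ZNF160 had one at MIR4713HG (98.02) and ZNF763 one at MIR663AHG (93.24). The last of these also overlapped deposited peaks of ZKSCAN8 and ZNF746. Apart from the peak at MIRLET7A1HG, these scores were below 100. The interval of the share overlapped those of LINC and antisense genes and lay above the 1.87% of all genes and above the interval of genes with an identifier alone. The limits given above for the lists hold here too.

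Scores depend on the library and are compared only inside a list. At the top of the ZNF251 members, LINC01596 on chromosome 4 and ENSG00000290924 on chromosome 9 both had a score of 3100, a ceiling that 86 ZNF251 peaks shared. ENSG00000253593 followed with 2879.8 and LERFS with 2294.37. Over all ZNF251 members the scores ran from 80.72 to 3100 with a median of 169.255, close to the 185.13 of the library's other peaks and the 182.77 of its peaks at coding starts. Scores above 500 were reached by 31 members (14.0%) and by 17.1% of the other ZNF251 peaks. Lower in the list, DRAIC and ENSG00000259103 each had 2 ZNF251 members.

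In several other libraries the highest member also stood near the top of its list. That of ZNF746 ranked 6 of 260 peaks, that of ZNF763 ranked 12 of 224, that of ZFP28 ranked 15 of 1098 and that of ZNF850 ranked 15 of 464. That of ZNF160 ranked 431 of 6377. ZNF160 had 858.12 at ENSG00000243107, which lies on the same strand inside a coding gene, and ZFP28 had 785.71 at ENSG00000291063. ZKSCAN7 had 547.74 at ENSG00000236358, ZNF850 had 485.05 at LINC00240, and ZNF746 had 322.37 at GASAL1. These 5 peaks were above the medians of their libraries' other peaks, 215.125, 155.04, 133.675, 128.38 and 114.87, but each is the highest of its members. The medians of all members were above those of the other peaks for ZNF160 (276.42) and ZNF850 (134). They were below them for ZFP28 (110.64), ZKSCAN7 (98.13) and ZNF746 (98.42). The highest ZNF763 member scored 197.5 at ENSG00000267053, whose window has near-identical copies elsewhere (below), and the highest ZNF578 member 152.92 at ENSG00000290702. In the libraries of ZNF195 (ENSG00000287011, 87.33), ZNF20 (KCNJ5-AS1, 89.46), ZNF34 (ENSG00000290242, 88.69), ZNF446 (DLGAP1-AS2, 86.22) and ZNF724P (LINC01859, 82.52), the highest member stayed below 90. All 4 ZNF195 members, from 83.32 to 87.33, were below the 88.77 that was the median of its other peaks. ZNF763 was the opposite, with 8 of 11 members above the 94.12 of its other peaks.

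The members formed 282 loci, of which 1 held members of 2 KZFPs. It lies at ENSG00000234961, an antisense transcript inside VIM, the vimentin gene, where ZNF763 had a peak of 140.75 (chr10:17276560-17276865) and ZKSCAN7 one of 90.84 (chr10:17276691-17276839), both overlapping a coding exon. ENSG00000234156 also had members of 2 KZFPs, ZNF763 (82.09) and ZNF850 (117.11), but at separate starts. When deposited peaks below the threshold were counted too, 10 members overlapped a peak of another KZFP (3.53%, 1.71 to 6.40%). Of all 31717 peaks 4.09% did so, and of the 1712 at coding starts 6.54%. With peaks above 80 alone, it was 0.707% of members (0.0857 to 2.53%), 2.59% of all peaks and 4.09% of those at coding starts. Inside ZNF251 it was 0 of 222 members (up to 1.65%) and 0.939% of all its peaks. Deposited peaks below the threshold that overlapped ZNF251 members were ZNF746 peaks at LINC01132 and ENSG00000267446 and a ZNF160 peak at LINC00863. None of the 283 members overlapped a deposited peak of 293Tctrl, and of all 31717 peaks 10 did (0.0315%), a share that the members' interval (up to 1.30%) holds.

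Peak midpoints lay on both sides of the lncRNA start. The median distance was 187 bp, 102 of 283 lay within 100 bp, and 180 peaks spanned the start. Midpoints lay upstream in 147 cases, downstream in 134 and on the start in 2. ZNF850 had 8 of 9 midpoints upstream, from 11 bp to 432 bp before the start, and 1 downstream, but 6 of these 9 members were copies of related sequence (below). ZNF160 had 6 upstream and 5 downstream and only 2 within 100 bp. At 23 members, lncRNAs started on both strands within 500 bp. Within 1 Mb of an assembly gap, which is 50 kb or more of unsequenced bases, lay 39 members, 29 of them of ZNF251. Without all peaks near a gap, ZNF251 had 193 members among 18914 peaks, 1.02% (0.882 to 1.17%). With them it had 222 among 20974, 1.06%, so its share changed little.

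The density of peaks around the 36468 eligible lncRNA starts was compared between distances, leaving out all bases within 2500 bp of coding starts. ZNF251 peaks reached 10.5 per Mb within 500 bp (9.13 to 11.9) and between 7.03 and 7.44 per Mb in the 4 bins from 500 to 5000 bp. The libraries other than ZNF251 and ZNF160 had together 2.37 per Mb within 500 bp (1.76 to 3.12) and 1.33 per Mb from 500 to 1000 bp (0.860 to 1.96). ZNF160 went the other way, with 0.521 per Mb within 500 bp (0.260 to 0.932) and 1.47 per Mb from 3000 to 5000 bp (1.18 to 1.81).

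**Figure D2:**
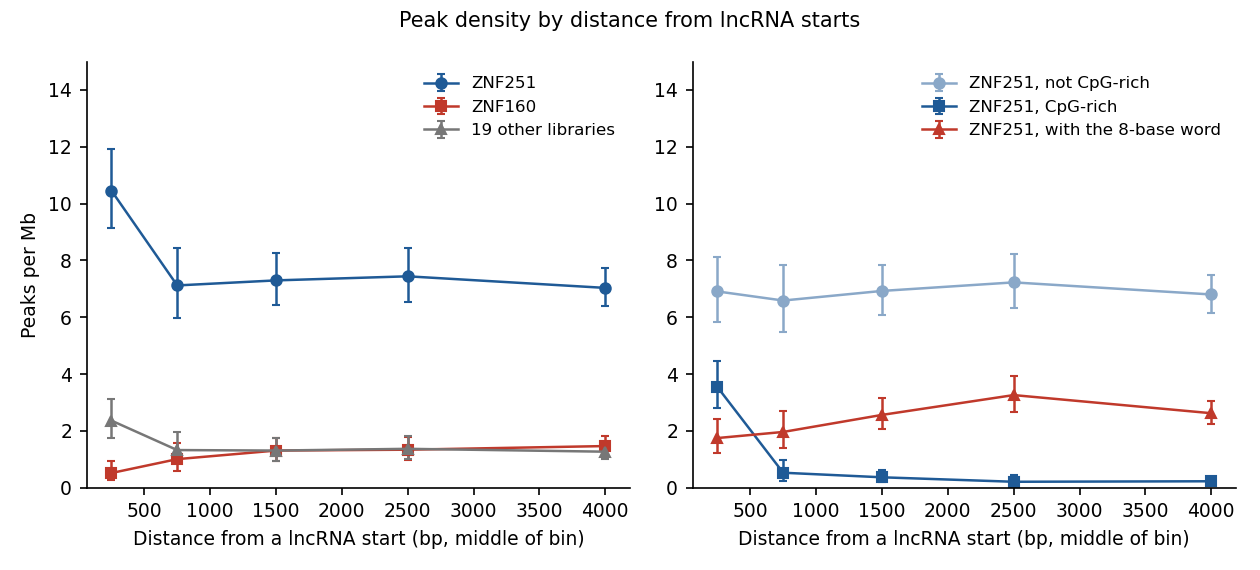
Peaks per Mb by distance from lncRNA starts (bp), with exact 95% Poisson intervals. Left, ZNF251, ZNF160 and the 19 other libraries. Right, ZNF251 peaks that were CpG-rich, that were not, and that held the 8-base word. Of the classes drawn on the right, only the CpG-rich one is highest next to the start (3.55 per Mb).

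Base composition separated the KZFPs. In the central 200 bp, members had a median GC content of 51% and a CpG observed/expected ratio of 0.458, a measure of how many CG dinucleotides remain relative to the C and G content. Other peaks of the 21 libraries had 38% and 0.197, and the 35000 lncRNA starts without any deposited peak had 48.5% and 0.263. A window was called CpG-rich when the ratio was at least 0.6 and the GC content at least 50%, limits chosen after the data were seen. Of the members 33.9% were CpG-rich (96, interval 28.4 to 39.8%), of other peaks 6.67%, of lncRNA starts without a peak 15.3%, and of peaks at coding starts 76.4%.

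In 4 libraries with at least 5 members, the members were close to the rest of their own list. ZNF160 members had a median GC content of 30.5% and none of 11 was CpG-rich, and its other peaks had 31.5%. ZNF746 members had 70.5% and 6 of 7 were CpG-rich, and its other peaks had 73% with 83.8% CpG-rich. ZNF763 members had 69% with 7 of 11 CpG-rich, and its other peaks 67.5% with 41.3%, inside the members' interval (30.8 to 89.1%). ZNF850 members had 68% with 2 of 9 CpG-rich (22.2%), and its other peaks 61.5% with 14.1%. ZNF251 members differed from the rest of their list, with a median of 50% and 33.8% CpG-rich among members (75 of 222, 27.6 to 40.4%), against 39.5% and 7.63% among its other peaks. Its 1385 peaks at coding starts had 64.5% and 76.0%. The median GC content was also higher in the few members of ZFP28 (48% in 5 members, 33% in other peaks), ZNF578 (49% in 7 members, 39.5% in other peaks), ZNF195 (60.5% in 4 members, 50% in other peaks) and ZKSCAN7 (51.5% in 3 members, 39% in other peaks).

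**Figure D3:**
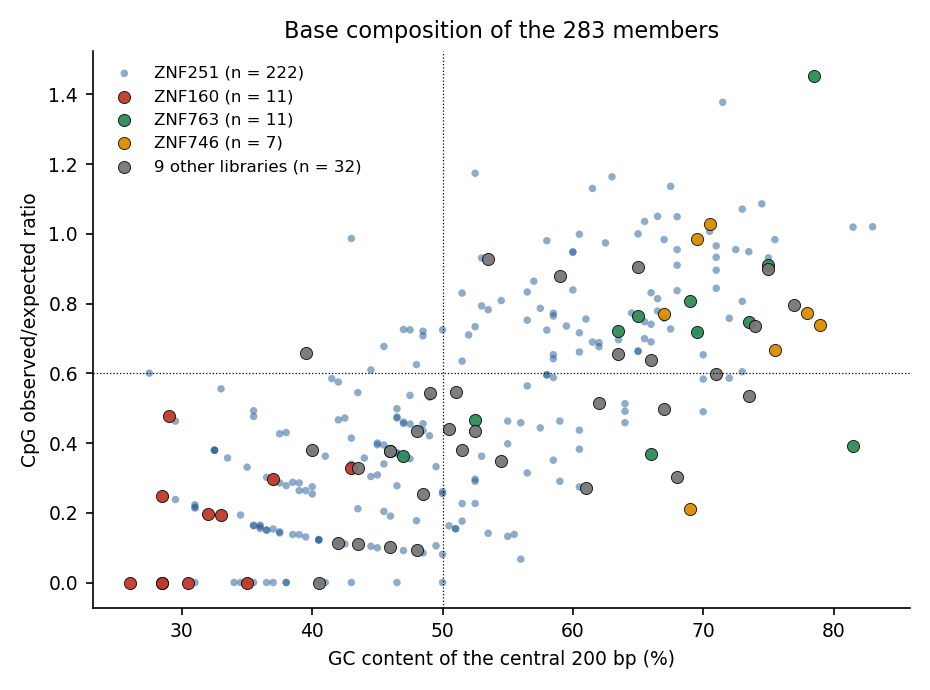
GC content (%) against the CpG observed/expected ratio in the central 200 bp of the 283 members, each point a peak and coloured by library, with dotted lines at the limits of the CpG-rich class. ZNF160 members lie at low GC (median 30.5%), ZNF746 members at high GC (median 70.5%), and ZNF251 members spread over both.

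The ZNF251 members thus fell into 75 CpG-rich and 147 other peaks, and the 2 classes were placed differently. CpG-rich members lay a median of 59 bp from the start, 56% of them within 100 bp, and 84% spanned it. The others lay at 210 bp, 29.3% within 100 bp, and 54.4% spanned the start. Their median scores were alike, 163.92 and 170.07. In the density around starts, CpG-rich ZNF251 peaks fell from 3.55 per Mb within 500 bp (2.79 to 4.45) to 0.531 per Mb from 500 to 1000 bp (0.255 to 0.977). Peaks that were not CpG-rich had 6.91 per Mb (5.84 to 8.13) and 6.59 per Mb (5.48 to 7.86), so the difference between the bins lay mostly in the CpG-rich class. CpG-rich sequence itself was concentrated in the same way, since 16.7% of windows at lncRNA starts were CpG-rich and 3.04% of those 750 bp away. Starts that were CpG-rich had a ZNF251 peak within 500 bp in 4.65% of 6086 cases (4.13 to 5.21%), and the other starts in 0.876% of 30382 (0.774 to 0.987%). The other KZFPs together gave 2.05% and 0.174%. Starts of 1 gene can share a peak, so these intervals are too narrow.

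**Figure D4:**
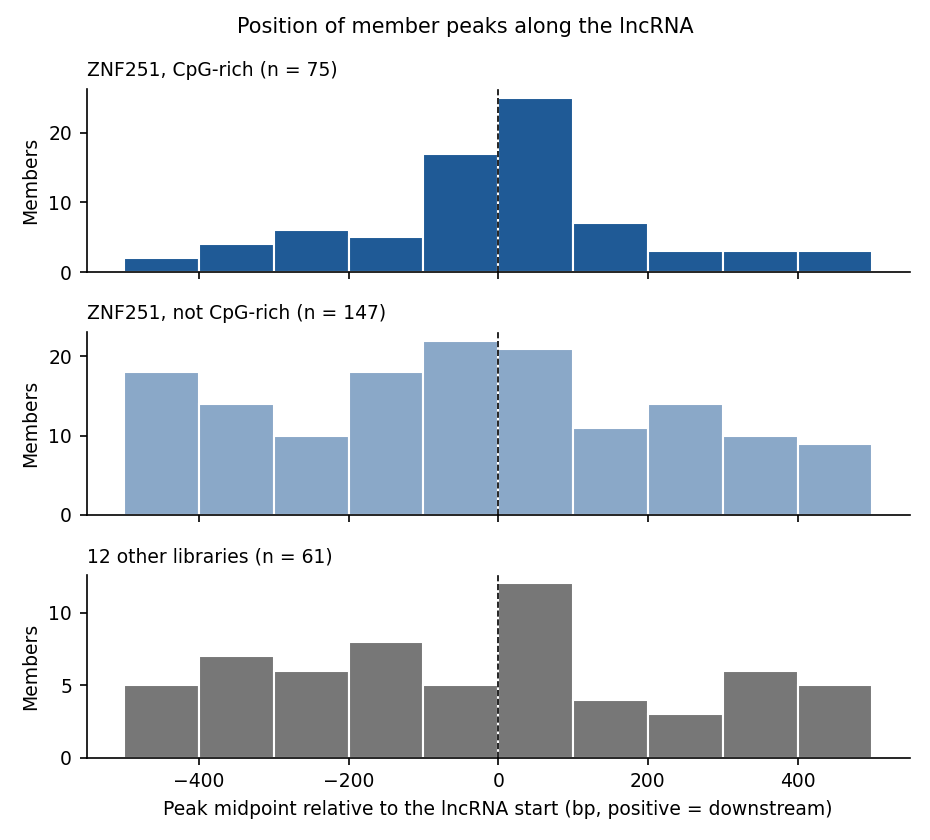
Number of members by position of the peak midpoint relative to the lncRNA start (bp, bins of 100 bp, positive values downstream), for CpG-rich ZNF251 members, other ZNF251 members and the members of the 12 other libraries. CpG-rich ZNF251 members pile up at the start, with 17 and 25 of 75 in the 2 bins beside it, while the other ZNF251 members reach 22 and 21 of 147.

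The word most typical of ZNF251 was looked for in its peaks away from lncRNA promoters. Of all 8-base words, counted on both strands in 200 bp, aagtgaaa had the largest excess in these peaks over flanks 500 bp away, with 38.9% against 2.08%. Among ZNF251 members 38 of 222 held it (17.1%, 12.4 to 22.7%), against 2.03% of their flanks and 1.47% of lncRNA starts without a peak. Members therefore held it less often than the other ZNF251 peaks and more often than ZNF251 peaks at coding starts (2.45%). The word, which is mostly A and T and holds no CG, split by composition. How far the limits of the CpG-rich class alone give this split was not tested. The word was in 1 of 75 CpG-rich members (1.33%) and in 37 of 147 others (25.2%, 18.4 to 33.0%). The same held away from lncRNA promoters, with 1.26% of CpG-rich and 42.0% of other peaks. Peaks with the word were not denser next to the starts, with 1.75 per Mb within 500 bp and 2.63 per Mb from 3000 to 5000 bp. Peaks that neither held the word nor were CpG-rich had 5.21 per Mb (4.28 to 6.28) and 4.18 per Mb (3.68 to 4.73) in the same bins. The word ran along the lncRNA's strand in 13 members and against it in 25. Of these 38 members, 18 belonged to 1 set of related copies (below), and most of those 18 ran against the strand. The 2 counts therefore do not rest on independent sites, and a preferred strand was not tested.

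The search was widened, after the data were seen, to KZFPs with at least 5 members. For ZNF850 the word cccctctc was in 6 of 9 members and 56.5% of its other peaks, against 0 of 18 member flanks and 1.78% of lncRNA starts without a peak. For ZNF578 ggtcctga was in 3 of 7 members and 59.9% of other peaks. For ZNF746 ccctcccc was in 5 of 7 members and 50.6% of other peaks, but also in 4 of 14 flanks. For ZNF160 aaaaagaa was in 7 of 11 members and 36.3% of other peaks, an A-rich word that 4.19% of lncRNA starts without a peak hold. The words of ZNF763, cccccgcc, and of ZFP28, gaaataga, were each in only 1 member, of 11 and 5. In these lists of 5 to 11 members the intervals are wide, 29.9 to 92.5% for ZNF850. A word is a description of letters and not a mapped binding site.

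Part of the members lay in repeated sequence, again unevenly. The central 200 bp of each member was matched to hg19, counting matches of at least 100 bp. Other peaks were not matched in this way, so these counts do not show whether members are more or less repeated. Of the 283 members, 146 (51.6%) had at most 1 match, 99 (35.0%) had more than 10 and 74 (26.1%, 21.1 to 31.7%) more than 100. A single match is the member's own position, but 1 of the 146, ENSG00000287763 of ZNF763, had no match at all. All but 1 of the 9 ZNF850 members had more than 100 matches, with a median of 2152, and ZNF160 members had a median of 57. Of the ZNF746 members 6 of 7 were single-copy, and the seventh had 8 matches. For ZNF763 4 of 11 members had a second match of at least 98% identity over at least 100 bp. Reads may be hard to assign there, but their mapping was not examined. In ZNF251 11 of 222 members had such a second match, LERFS and LINC00863 included. The highest ZNF763 member, ENSG00000267053, had 27 matches of that identity, its own position included. ENSG00000267605 had 14, and FAM27C and POM121L9P had 2 each. The only ZNF446 member, DLGAP1-AS2, had 41. A peak in such a place may belong to another copy.

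The classes of ZNF251 differed here too. CpG-rich ZNF251 members had more than 100 matches in 6.67% of cases (2.2 to 14.9%), and the others in 32.0% (24.5 to 40.2%). Of the 38 members with the word, 25 (65.8%, 48.6 to 80.4%) had more than 100 matches, with a median of 1117. WindowMasker, which marks bases in words that are frequent in the genome, marked at least 50% of the window in 18.0% of ZNF251 members (13.2 to 23.7%), 46.4% of its other peaks and 11.8% of lncRNA starts without a peak. For ZNF160 it was 6 of 11 members and 65.7% of other peaks, for ZNF850 4 of 9 and 52.5%, and for ZNF763 3 of 11 and 32.9%. For ZNF578 it was 1 of 7 and 72.3%, for ZFP28 0 of 5 and 34.4%, and for ZNF746 0 of 7 and 6.32%. In each of these libraries the share was lower in members than in other peaks, with wide intervals in the small lists. Among the members on the lists of known lncRNAs, SNHG12, DANCR, MALAT1 and MIRLET7BHG had 0% of their windows marked. The others had more, with 65% at MIR4713HG, 23.5% at HOXA-AS2, 13% at MIR663AHG, 12% at CRNDE, 10.5% at MIRLET7A1HG and 9.5% at MIR31HG.

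Sequence matches of at least 100 bp also tied members to each other, 52 of 283 in all. The largest set held 24 ZNF251 members, 18 of them with the word, among them ENSG00000229321, ENSG00000248676, PCBP1-AS1 and LINC00525, with scores from 86.12 to 2148.03 and a median of 4445.5 matches in the genome. These members are copies of related sequence and not independent sites. A second set had 8 members from ZNF850 (6), ZNF763 and ZNF251, with 1600 to 2648 matches each, and held LINC00240 and LINC02253. Another set of 8, from ZNF251 (4), ZNF195 (2), ZKSCAN7 and ZNF446, had a median of 623991.5 matches, the most abundant of all, and scores of at most 249.11.

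**Figure D5:**
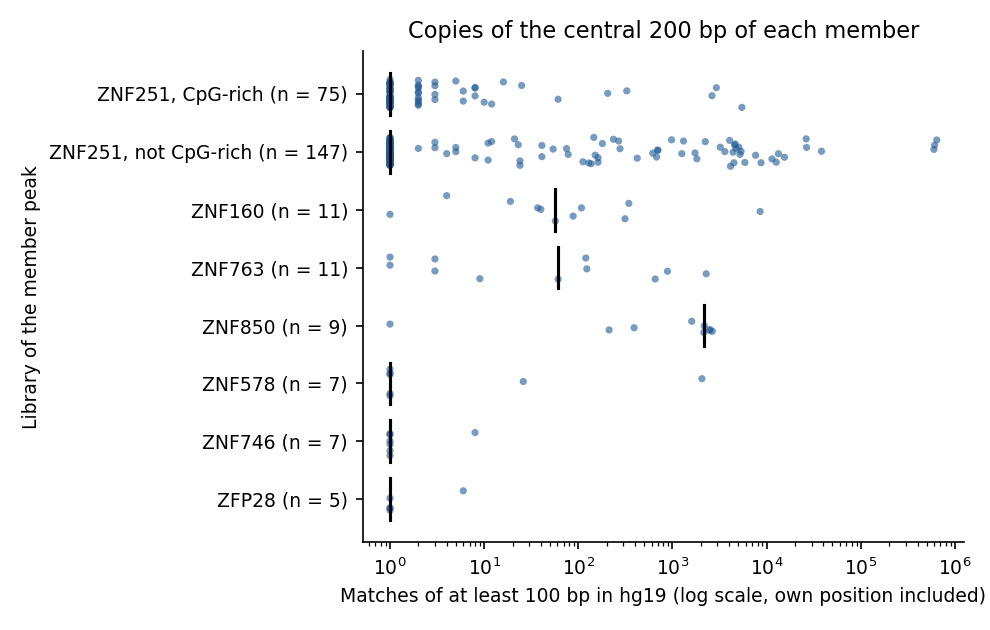
Number of matches of at least 100 bp in hg19 (log scale, the member's own position included) for the central 200 bp of each member, in ZNF251 by CpG class and in the other libraries with at least 5 members. Points are members and black lines medians, which are 1 for both ZNF251 classes and 2152 for ZNF850. The 1 ZNF763 member without any match is drawn at 1.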

How the data were processed

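Peak lists of 21 KZFP libraries (15 ChIP-exo, 6 ChIP-seq) and of the 293Tctrl library were used as deposited. The value of each peak is the score that the authors' peak caller gave, 10 times the −log10 of the p-value, and served for thresholds and order inside a single list, since it depends on the depth of a library and its control. Lists start at a score of 50. According to the methods, reads were mapped to hg19 with Bowtie2 and peaks were called with MACS in each library by itself, against total input for ChIP-seq and against input sampled from all samples for ChIP-exo, with duplicates kept in the latter. The submitters' processing notes give Bowtie2 2.2.1 and MACS 1.4. Read depth per library is not given in the sources used here, and 2 total input libraries were not used.

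Members were taken with GENCODE release 44 (lifted to hg19). Overlapping members were merged into loci. Base composition, words of 8 bases and copies were read from 200 bp around each midpoint of the GRCh37 sequence. Matches in the genome came from blastn 2.17.0 (at least 100 bp, E below 1e-05), where a repeat can give more than 1 match, and frequent words from WindowMasker 1.0.0. Scripts ran in Python 3.11.15 with pysam 0.24.0 and scipy 1.17.1 and were tested on simulated peaks and sequences. Groups were taken from the labels, with 1 library per KZFP and thus no test between KZFPs. Named lncRNAs were the 3 highest ZNF251 members, the highest member of every other library, the 5 loci with most KZFPs and all members on lists of imprinted, nuclear body, snoRNA host, miRNA host and developmental lncRNAs. Others were named after their values were seen. The members and lists were chosen with earlier results of these data known. The CpG-rich class, the words of KZFPs with 5 to 19 members the shares of single libraries under other settings, the overlap shares of all peaks and the values without ZNF160 were chosen after seeing the data. Some sequence windows that the rule names are not reported here.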

Additional observations from a re-analysis of the deposited data

How the results depend on the processing

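Results were compared 95 times with their value under another setting. Of these, 67 stayed within 1.5 times the reported count or within the interval of the reported share or median, and 28 moved. A setting counts once for each result it touches, and several results overlap. With all deposited peaks there were 624 members, 359 of them of ZNF251, 610 loci, 13 loci of several KZFPs and a share of 0.818% for the other KZFPs. With a score above 150 there were 144 members, 126 of ZNF251, 144 loci, 0 loci of several KZFPs and a share of 0.300%, and with a score above 100 the share was 0.393% with 0 shared loci. Within 250 bp of the start, members fell to 183, loci to 182 and the shares to 0.706% (ZNF251) and 0.326% (others). Within 1000 bp there were 463 members, 357 of ZNF251, 462 loci and shares of 1.70% and 0.987%. When 1 bp of the peak within the distance sufficed, the shares were 1.35% and 0.782%, and with basic transcripts the ZNF251 share was 0.915%. Without ZNF251, 61 members and 60 loci were left. Without ZNF160, chosen after seeing the data, the share of the other KZFPs was 1.15%. The 1 shared locus, at ENSG00000234961, was lost (0 loci) when every transcript of coding genes counted and when peaks near assembly gaps were left out. The GC content and CpG ratio stayed within their intervals under all 4 settings tried for each. For alternatives added later, any of the 10 best ZNF251 words was in 25.7% of its members, 51.0% of its other peaks and 7.22% of its peaks at coding starts, and limits of 0.75 and 55% left 20.3% of members and 5.28% of other ZNF251 peaks CpG-rich, so that both orders were kept. No paired analysis was possible because there is 1 library per KZFP. Where a move has no cause in the setting itself, the cause was not tested.

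Limits: read depth is unknown, each KZFP was overexpressed in a single line, and scores cannot be compared between libraries. Lists with few peaks hold few members by size alone, and copies of at least 98% identity leave some positions uncertain. Expression of the lncRNAs was not measured here.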
